A study of Mus musculus with 11 samples.

Results

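The comparison of imatinib with phosphate-buffered saline (PBS) at 3 h rests on 5 of the 11 arrays of the series: 2 arrays of imatinib-treated and 3 of PBS-treated mice, which are all the arrays of that time. The RNA came from vascular fragments, that is, vessels isolated from the ipsilateral hemisphere after occlusion of the middle cerebral artery (MCAO), a model of stroke. All mice were adult C57BL/6 males, and all of them, controls included, had undergone MCAO 3 h earlier after 3 treatments with imatinib or PBS. Vessels of mice without MCAO were not analysed here. The columns of 3 h are numbered 1 to 5 and those of 24 h start at 7, and no sample with the number between was analysed here. Values are the authors' log2 signals of 30790 genes, each taken from 1 probe set, and every difference is the mean of the imatinib arrays minus the mean of the PBS arrays on that scale. The 6 arrays of 24 h, whose mice had a 4th treatment, entered the estimate of spread and served to set the 3 h differences beside those at 24 h. The labels do not say that replicates were separate animals, so p-values here reflect the spread between these arrays alone, which may be technical.

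Imatinib inhibits a group of tyrosine kinases that includes ABL, KIT, the colony stimulating factor 1 receptor, the discoidin domain receptors and both receptors for platelet-derived growth factor (PDGF). In brain vessels PDGFRB marks pericytes, the cells that wrap the capillary endothelium and depend on PDGF-B from it, while PDGFRA marks perivascular fibroblasts and oligodendrocyte precursors and has been placed on astrocytic processes around vessels. In mouse stroke, tissue plasminogen activator can activate PDGF-CC, a ligand of PDGFRA, and imatinib has been used there to block the opening of the blood-brain barrier that follows. The question of the comparison is which transcripts of the vessel differ with imatinib in the first hours of ischaemia.

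The preparation carried endothelial RNA at high levels, with other cell types beside it. The mean log2 signal of 20 endothelial markers was 10.89 to 11.05 on the PBS arrays and 11.03 to 11.05 on the imatinib arrays, against a median of 5.24 to 5.28 over all genes on an array. Pericyte (8.63 to 9.28), smooth muscle (8.47 to 9.27), microglia (9.96 to 10.40) and astrocyte (7.63 to 8.11) lists also lay well above that median, while the neuron list lay at 5.37 to 5.59. The 5 arrays correlated with each other at Pearson's r of 0.9875 to 0.9905 across genes, with no gap between pairs of the same treatment (0.9876 to 0.9896) and pairs of different treatment (0.9875 to 0.9905). In a principal component analysis of the 5 arrays, the first component (30.08% of the variance) set PBS replicate 1 apart, with a score of -37.64 against 6.21 to 12.62 on the other 4 arrays. The second (25.79%) placed PBS replicate 2 at -31.89 and imatinib replicate 1 at 22.17, so neither component separated the treatments. Where a list median moved by over 1.5 times or changed sign without 1 array, its value without that array, or its range with each array left out in turn, is given beside it.

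With imatinib no gene passed the test at 3 h in either direction, 0 of 30790 higher and 0 of 30790 lower at an adjusted p of 0.05 (limma, all 11 arrays, Benjamini-Hochberg). At an unadjusted p of 0.05 there were 992 genes with a higher (3.22%) and 978 with a lower signal (3.18%). The smallest adjusted p was 0.0564, shared by Cldn6 and the olfactory receptor gene Olfr116, and in a fit of the 5 arrays of 3 h alone the smallest was 0.723. Both imatinib arrays lay above all 3 PBS arrays in 2953 genes (9.59%) and below all 3 in 2815 (9.14%), and these 2 percentages are the background for every count of separated genes below. The median difference over all genes was 0.00 and the median standard error (SE) of a difference 0.15, so for a typical gene a difference of that size equals its own error. There are 10 ways to split the 5 arrays into 2 and 3. Under random order each would be equally likely, so both percentages of separated genes are near what random order alone gives. An exact permutation test with the smaller tail doubled cannot give a two-sided p below 0.2, and none is given for single genes. What follows describes differences of which none passed, by the values on each array and by how many members of a gene list were separated. Members of a list were measured on the same 5 arrays and are not independent. A share of separated members, also where set beside the share of all genes, therefore does not count replicates.

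Cldn6 was the named gene with the smallest p and one of 4 genes of the named class, which leaves out predicted genes, small RNAs and chemosensory receptors, with at least 2-fold higher signal. It codes for a claudin, a family of tight junction proteins, known mainly from embryonic epithelia. Its log2 signal was 4.12, 3.95 and 4.05 on the PBS arrays and 5.42 and 5.19 on the imatinib arrays. The PBS values lay near the 25th percentile of all genes on an array (3.93 to 3.97), and both imatinib values lay near the median of all genes. The difference was 1.27 ± 0.15 (SE, n = 2 and 3), a 2.41-fold difference, with an adjusted p of 0.0564 in limma. At 24 h the difference was -0.20 ± 0.14, and the test of the 2 differences against each other gave 1.47 ± 0.205 (adjusted p = 0.371 in limma). Cldn5, the main claudin of brain endothelium, measured 10.37, 10.49 and 10.56 with PBS against 10.67 and 10.42 with imatinib, so its groups overlapped.

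Olfr116, which falls outside the rule for named genes and is given because it tied with Cldn6, measured 3.71, 3.76 and 3.67 with PBS and 4.73 and 4.94 with imatinib, a difference of 1.12 ± 0.13. The largest upward difference of the named class belonged to Slc22a13b-ps, a pseudogene of the organic anion transporter family, with 4.05, 4.81 and 4.48 against 5.54 and 6.11 (1.37 ± 0.28, adjusted p = 0.602 in limma). Strip2, a subunit of a phosphatase and kinase complex, measured 4.65, 4.88 and 4.77 against 5.29 and 5.99. Eps8l1, which codes for a relative of an actin regulator, measured 5.75, 5.86 and 5.82 against 6.88 and 6.23, and Tnfsf9, the ligand of the T cell receptor 4-1BB, 5.93, 5.49 and 6.35 against 6.51 and 6.60. In each of these 5 genes every imatinib array exceeded every PBS array, though the imatinib arrays of Olfr116, Strip2 and Eps8l1 differed from each other by more than their PBS arrays did. The other 10 of the 15 largest named differences upward ran from 0.61 in Eid3 and Tfap2b to 0.95 in Pla2g10os and included the haemoglobin genes Hba-a2 and Hbb-b2, the neuronal calcium sensor Vsnl1, the zinc finger gene Zfp141, the enzyme genes Lao1 and Thumpd2, and Trim43c.

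Among named genes with lower signal under imatinib, Arnt2, Ccne1 and Cass4 had adjusted p-values among the smallest. Arnt2, a partner of basic helix-loop-helix PAS transcription factors, measured 6.30, 6.29 and 6.07 with PBS and 5.35 and 5.46 with imatinib (-0.82 ± 0.13, adjusted p = 0.288 in limma). Ccne1, which codes for cyclin E1 of the entry into DNA replication, measured 5.85, 6.04 and 6.07 against 5.16 and 5.41 (-0.70 ± 0.12, adjusted p = 0.303 in limma). The adaptor gene Cass4, of the p130Cas family of adhesion signalling, measured 5.23, 5.25 and 5.39 against 4.53 and 4.66 (-0.70 ± 0.13, adjusted p = 0.471 in limma). The gap between the groups was wider than the whole range within either group in all 3 genes. That also held for other genes with lower signal, among them Asl, Mobp, Olig1, Bcas1, Ms4a4c, Snhg11 and Cyp2d13. The signal of Cyp2d13 was low, from 3.51 to 4.12 on the 5 arrays. In the other cell cycle genes nothing of that size was seen, with 1 of 29 list members below all PBS arrays, Ccne1 itself, 3 above, and a median of 0.02 (0.00 to 0.07 when 1 array was left out).

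Asl codes for argininosuccinate lyase, the enzyme that releases arginine. Its signal was 6.20, 6.66 and 6.44 with PBS and 5.45 and 5.50 with imatinib, a difference of -0.96 ± 0.18 (adjusted p = 0.471 in limma). Other genes among the 15 largest differences downward follow. Mbp, myelin basic protein, measured 7.35, 7.75 and 7.57 against 6.28 and 6.91 (-0.96 ± 0.33), Mobp, another myelin protein gene, 6.42, 6.54 and 6.68 against 5.65 and 5.99 (-0.73 ± 0.21), and Fabp7, the fatty acid binding protein of astrocytes and radial glia, 8.48, 8.15 and 7.32 against 7.24 and 7.06 (-0.83 ± 0.26). Mt3, the brain metallothionein, and Fxyd6, a regulator of the sodium pump, differed by -0.65 ± 0.26 and -0.67 ± 0.28. In Fabp7 the lowest PBS array stood only just above the imatinib arrays, while in Mbp and Mobp all 3 PBS arrays were clear of them. Pdgfra, the guanylate binding protein gene Gbp4 and the interferon-inducible GTPase gene Igtp, also among the 15, are described with their groups.

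**Figure D1:**
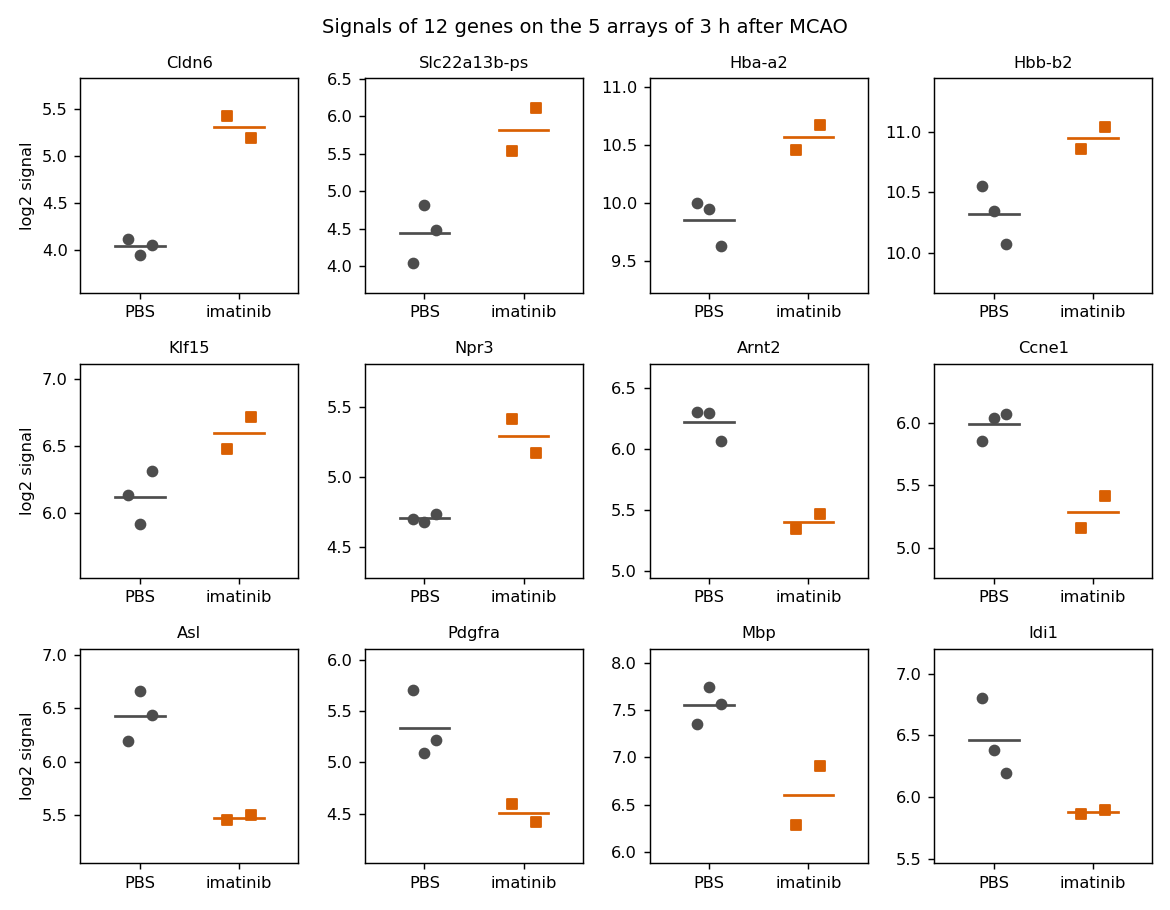
Log2 signals of 12 genes on the 5 arrays of 3 h, with PBS as circles and imatinib as squares, and lines at the group means; each panel has its own vertical axis. Every imatinib array lies outside the range of the PBS arrays in all 12, which were picked from the named genes for that, and none passed the test.

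Of the kinases that imatinib inhibits, the genes of both PDGF receptors, Ddr2 and Abl1 had lower signal on both imatinib arrays than on any PBS array. These are 4 of the 8 measured genes (50%), against the 9.14% of all genes given above, with 0 above and a median difference of -0.24. The counts of several lists share these genes. Both PDGF receptor genes are counted again in the PDGF list, Pdgfrb among pericyte markers and Pdgfra among fibroblast and oligodendrocyte precursor markers. Pdgfra measured 5.71, 5.09 and 5.22 with PBS and 4.60 and 4.42 with imatinib, a difference of -0.83 ± 0.19 (unadjusted p = 0.000983, adjusted p = 0.679 in limma). Pdgfrb measured 8.65, 9.38 and 8.78 against 8.55 and 8.41 (-0.45 ± 0.19, adjusted p = 0.767 in limma). In Pdgfra the nearest arrays of the groups, 5.09 and 4.60, were closer than the lowest and highest PBS arrays, 5.09 and 5.71. All its values except 5.71 lay below the median of all genes on an array (5.24 to 5.28). In Pdgfrb the nearest arrays of the groups, 8.65 and 8.55, almost met. Ddr2, a collagen receptor, measured 6.77, 6.92 and 6.64 against 6.48 and 6.51, and Abl1, the kinase imatinib was designed against, 6.68, 6.52 and 6.55 against 6.51 and 6.28, where the gap was 0.01. For the stem cell factor receptor Kit the groups overlapped, with 6.15, 6.17 and 6.72 against 6.23 and 5.94, and the same held for Ddr1 (difference -0.22 ± 0.14), for Csf1r, the receptor that maintains microglia (-0.12 ± 0.11), and for Abl2 (0.07 ± 0.12). Without any 1 of the 5 arrays the median of the 8 genes stayed between -0.21 and -0.29.

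Ligands and activators of the PDGF axis lay in both directions. Of 15 list members, 3 were below all PBS arrays (the 2 receptors and Lrp1, an endocytic receptor that binds PDGFRB and tissue plasminogen activator, -0.27 ± 0.14) and 1 was above. That 1 was Plat, the gene of tissue plasminogen activator, with 11.22, 11.15 and 11.43 against 11.57 and 11.46 (0.25 ± 0.27), where the groups were 0.02 apart. Pdgfc, the gene of the ligand that this protease activates, measured 5.96, 5.60 and 6.33 against 5.76 and 5.97, so its groups overlapped. The median of the 15 genes was -0.07, and between -0.08 and 0.00 when 1 array was left out. None of these values bears on kinase activity, which the arrays did not measure.

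Pericyte markers had lower signal with imatinib throughout the list. All 14 measured markers had a negative difference, 10 of them were below all PBS arrays (71.4%, against 9.14% of all genes) and the median was -0.30. Notch3, the receptor of mural cell maturation, measured 7.82, 7.62 and 7.41 with PBS and 7.22 and 7.19 with imatinib (-0.41 ± 0.13, adjusted p = 0.708 in limma). Art3, an ADP-ribosyltransferase family gene, measured 6.91, 7.28 and 6.91 against 6.68 and 6.59 (-0.40 ± 0.13). Abcc9, a subunit of the pericyte potassium channel, measured 9.05, 9.95 and 9.17 against 8.95 and 8.61 (-0.61 ± 0.28), Atp13a5, a transporter gene used as a pericyte marker, 8.94, 9.45 and 8.73 against 8.60 and 8.58 (-0.45 ± 0.21), and Vtn, the matrix protein vitronectin, 11.62, 12.08 and 11.63 against 11.56 and 11.44 (-0.27 ± 0.15). The values show 1 high array, PBS replicate 2, which held the highest PBS value in 12 of the 14 genes. Without it the median was -0.17, all 14 differences were still negative and 10 genes were below both remaining PBS arrays (15.8% of all genes were). RNA of whole fragments cannot tell fewer cells of a type from less RNA per cell.

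Other cells of the vessel wall gave a less even picture. Of the 13 smooth muscle genes none was separated, and the median of -0.22 came to -0.05 without PBS replicate 1, to 0.05 without imatinib replicate 1, to -0.41 without PBS replicate 2 and to -0.48 without imatinib replicate 2. Acta2, smooth muscle actin, shows why no direction is given, as it ranged from 10.47 to 11.33 with PBS and measured 10.30 and 10.85 with imatinib. Among perivascular fibroblast markers 2 of 13 were below all PBS arrays, Pdgfra and the collagen gene Col1a2 (5.88, 5.82 and 5.73 against 5.56 and 5.38), with a median of -0.09 (-0.04 without PBS replicate 2, -0.01 without imatinib replicate 1, -0.16 without PBS replicate 3 and -0.25 without imatinib replicate 2). In the vascular tone list, 4 of 25 were below and 2 above. The lower ones included Agtr1a, the angiotensin receptor (-0.38 ± 0.15), and Ednra, an endothelin receptor of mural cells (-0.28 ± 0.15), beside Abcc9 and the pericyte gene Rgs5. Npr3, the clearance receptor of natriuretic peptides, was the highest of the list, with 4.70, 4.68 and 4.73 against 5.41 and 5.17 (0.59 ± 0.15, adjusted p = 0.694 in limma). Its 3 PBS arrays lay close together, and both imatinib arrays stood clear of them.

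Markers of brain cells outside the vessel wall mostly had negative differences, though the 11 choroid plexus and ependyma markers had a median of 0.08, which ranged from -0.38 to 0.43 when 1 array was left out. For oligodendrocytes 5 of 12 markers were below all PBS arrays, Mbp, Mobp, Opalin, Cnp and Ermn, 1 was above (Mal, by 0.12), and the median was -0.15 (-0.27 without imatinib replicate 1, -0.10 without PBS replicate 3). The myelin genes Mog, Mag and Cldn11 had overlapping groups and differences of -0.04, -0.00 and 0.02, so the markers did not all lie in 1 direction. Olig1, a transcription factor of the lineage, measured 6.36, 6.39 and 6.35 against 6.04 and 5.81 (-0.44 ± 0.13), and with Pdgfra was 1 of 2 separated genes among 9 precursor markers. Of 13 astrocyte markers 12 were negative, with a median of -0.29, but only Aldoc, the brain aldolase, was separated (9.59, 9.41 and 8.98 against 8.94 and 8.63). PBS replicate 3 was as low as the imatinib arrays for this list, and without it the median was -0.44 and 10 of the 13 were below both remaining PBS arrays (16.9% of all genes were). The median was -0.19 without PBS replicate 1 and -0.18 without imatinib replicate 2. Of 14 neuronal genes 4 were below, among them the long non-coding RNA Snhg11 (5.66, 5.47 and 5.37 against 4.90 and 4.82) and Slc17a7, the vesicular glutamate transporter (5.46, 5.73 and 5.47 against 5.15 and 5.10). How far glial and neuronal RNA on the PBS arrays takes part in single-gene differences such as Mbp, Fabp7 or Pdgfra was not tested.

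Of 13 microglia markers all were negative, with a median of -0.13 and 2 below all PBS arrays, Gpr34 and Olfml3. The highest array was PBS replicate 1, and without it the median was -0.06. It was -0.24 without PBS replicate 3 and -0.20 without imatinib replicate 1. The 18 neutrophil markers had a mean log2 signal of 5.33 to 5.97, near the median of all genes. Ms4a4c, a membrane protein gene of monocytes, stood out among 12 monocyte markers, with 5.46, 4.98 and 5.12 against 4.33 and 4.43 (-0.81 ± 0.15, adjusted p = 0.435 in limma). Its difference at 24 h was -0.84 ± 0.13, so both times gave nearly the same value, though from a comparison that shares the estimate of spread. Cd163, the haemoglobin scavenger receptor of border macrophages, measured 4.98, 4.83 and 4.84 against 4.36 and 4.61.

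**Figure D2:**
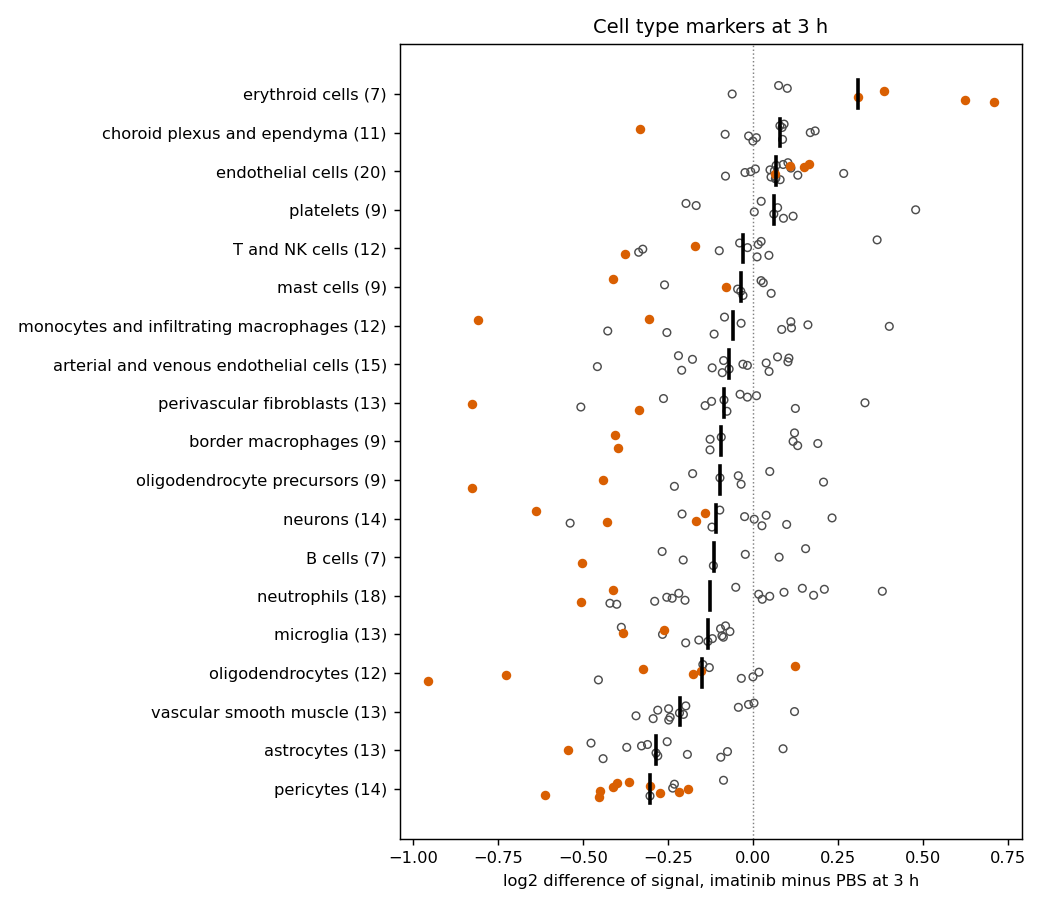
Differences of log2 signal (imatinib minus PBS at 3 h) of the marker genes of 19 cell types, with the number of genes measured in brackets. Filled points are genes whose groups do not overlap, open points are the others and bars are list medians, which run from -0.30 for pericytes to 0.31 for erythroid cells.

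General endothelial markers differed little, mostly upward, and arterial and venous markers did not share that. Of 20 general markers 17 were positive, 4 were above all PBS arrays (20%, against 9.59% of all genes) and the median was 0.07, which was 0.03 without PBS replicate 1 and 0.12 without PBS replicate 3. The 15 arterial and venous markers had a median of -0.07 with 5 positive and 0 separated, and the median was 0.08 without PBS replicate 3, 0.001 without imatinib replicate 1 and -0.05 without imatinib replicate 2. Those 4 general markers were Eng, the TGF-beta co-receptor endoglin (11.11, 11.21 and 11.34 against 11.35 and 11.41), Abcb1a, the drug efflux pump P-glycoprotein (11.60, 11.67 and 11.68 against 11.84 and 11.76), Emcn and Flt1. Their gaps were 0.00 to 0.08 log2 units, small beside the SE of 0.09 to 0.12. For genes of tight and adherens junctions 1 of 22 was above and 0 below, and the median was 0.05 (0.02 without PBS replicate 1). Blood-brain barrier transporters had a median of 0.08 (0.02 without PBS replicate 1, 0.13 without PBS replicate 3, 0.055 without imatinib replicate 1) with 4 of 25 above and 1 below. Those above included Slc38a3, an amino acid transporter (9.87, 10.06 and 10.22 against 10.29 and 10.30), and Mfsd2a, the lipid transporter that restrains transcytosis (10.28, 10.07 and 10.21 against 10.36 and 10.35). Of the caveolae list 4 of 12 were above, led by Sdpr, a cavin gene (10.20, 10.19 and 10.47 against 10.62 and 10.60). The muscle caveolin gene Cav3 was the 1 below, with 5.16, 5.04 and 5.14 against 4.92 and 4.87. In Norrin and Wnt signalling 4 of 26 were above, with Lrp5, a Wnt co-receptor, at 9.11, 8.97 and 9.22 against 9.47 and 9.36 (0.32 ± 0.12). None of these reached an unadjusted p of 0.05 except Lrp5 (0.0242). In the Notch list 12 of 15 were positive, with a median of 0.055 (0.007 to 0.138 when 1 array was left out). Of its members 1 was above all PBS arrays, Hey1 (9.22, 9.30 and 9.28 against 9.33 and 9.42). The 3 below (20%, against 9.14% of all genes) were Notch3, Dll1 and Heyl, of which Notch3 and Heyl are genes of mural cells.

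Interferon-stimulated genes had lower signal with imatinib, and 1 control array was the highest in most of them. Interferons act through transcription factors that bind a DNA element called the interferon-stimulated response element (ISRE) in the promoters of such genes. The letters TTTC, any 2 bases and TTTC again, read on both strands, were found within 250 bases before a start site in 14 of the 26 list genes that have a RefSeq promoter (53.8%) and in 936 of all 27025 promoters (3.46%). The promoters of 3 genes whose groups did not overlap are shown because they carry that element at different distances. Each is the 150 bases up to the start, from RefSeq on GRCm38.p6, at chr4:156200819-156200968 on the minus strand for Isg15, chr3:142559894-142560043 on the plus strand for Gbp3 and chr11:58199406-58199555 on the plus strand for Igtp, with matches to those letters on either strand in capitals.
Isg15: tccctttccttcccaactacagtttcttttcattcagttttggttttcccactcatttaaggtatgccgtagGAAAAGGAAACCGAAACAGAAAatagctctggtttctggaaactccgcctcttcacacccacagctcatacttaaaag
Gbp3: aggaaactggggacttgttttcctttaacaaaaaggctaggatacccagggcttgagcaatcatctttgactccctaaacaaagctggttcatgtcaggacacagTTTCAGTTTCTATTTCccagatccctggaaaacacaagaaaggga
Igtp: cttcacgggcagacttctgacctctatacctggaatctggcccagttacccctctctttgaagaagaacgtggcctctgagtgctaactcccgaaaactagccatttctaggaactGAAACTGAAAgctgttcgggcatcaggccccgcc
A match is a description of these letters and no evidence of binding. Overlapping matches run together, as in Isg15. Of the 16 separated genes of the list, 14 had a promoter in RefSeq and 7 of those (50%) held the element, against 53.8% for the list.

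Of the 33 interferon-stimulated genes measured, 29 were negative, 16 were below all PBS arrays (48.5%), 0 above, and the median was -0.23. Isg15, a ubiquitin-like protein, measured 8.81, 8.12 and 7.94 with PBS and 7.90 and 7.79 with imatinib (-0.45 ± 0.22). Gbp4 measured 8.69, 7.22 and 6.74 against 6.72 and 6.39 (-0.99 ± 0.43, adjusted p = 0.772 in limma), and Igtp 10.58, 9.54 and 9.39 against 9.38 and 8.86 (-0.71 ± 0.29). Gbp3, another guanylate binding protein, measured 8.90, 8.20 and 7.94 against 7.77 and 7.88. In each of these 4 genes PBS replicate 1 was the highest array by a wide margin and PBS replicate 3 stood just above the nearer imatinib array. The value of PBS replicate 2 lay between those of the other PBS arrays, as at 7.22 for Gbp4. PBS replicate 1 held the highest PBS value in 31 of the 33 genes. Without it the median was -0.14, 25 of 33 were negative, and 16 were below both remaining PBS arrays (15.4% of all genes were) with 2 above. The same array was highest in mean signal for the microglia, smooth muscle and antigen presentation lists, and the part of those cells in the interferon difference was not tested.

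Genes of antigen presentation had 4 of 18 below all PBS arrays, Tap1, Tap2, Psmb10 and Ciita, and a median of -0.16, which was -0.01 without PBS replicate 1. Among 31 cytokines and chemokines the 3 lowest separated genes included 2 chemokines that interferon is known to induce. Cxcl10 measured 7.64, 7.14 and 7.40 with PBS and 6.92 and 6.69 with imatinib (-0.59 ± 0.19, adjusted p = 0.708 in limma). Cxcl11 measured 8.45, 8.48 and 8.47 against 8.30 and 7.63, and Ccl12, a monocyte chemoattractant, 8.47, 8.16 and 7.58 against 7.53 and 7.57. PBS replicate 1 was the highest array for Cxcl10 and Ccl12, and for Cxcl10 all 3 PBS arrays stood above both imatinib arrays by 0.22 or more. Ccl11, the eosinophil chemoattractant eotaxin, lay in the other direction, with 5.99, 6.40 and 6.62 against 7.004 and 6.82 (0.58 ± 0.25). Tnf overlapped between the groups (8.95, 8.80 and 9.66 against 9.58 and 9.87), and its feedback inhibitor Tnfaip3, the gene of A20, was separated upward at 7.91, 7.93 and 8.08 against 8.24 and 8.47 (0.38 ± 0.13). The list as a whole had 3 above, 4 below and a median of -0.01 (-0.12 to 0.05 when 1 array was left out), and 3 of 21 NF-kappa-B genes were above with 0 below.

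Immediate early transcription factors, which growth factors and stress induce within minutes, had slightly higher signal with imatinib. The cAMP response element half-site, TGACG, read on both strands, is a known feature of their promoters, and was found within 250 bases before the start in 16 of the 22 list genes with a RefSeq promoter (72.7%) and in 5347 of the 27025 promoters (19.8%). Fos and Fosb, partners of Jun in the factor AP-1, are shown since both were separated. The windows are the 150 bases up to the start from RefSeq on GRCm38.p6, at chr12:85473740-85473889 on the plus strand for Fos and chr7:19310046-19310195 on the minus strand for Fosb, with the half-site in capitals.
Fos: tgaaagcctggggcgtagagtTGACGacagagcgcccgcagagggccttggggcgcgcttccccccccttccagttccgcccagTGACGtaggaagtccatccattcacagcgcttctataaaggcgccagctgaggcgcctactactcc
Fosb: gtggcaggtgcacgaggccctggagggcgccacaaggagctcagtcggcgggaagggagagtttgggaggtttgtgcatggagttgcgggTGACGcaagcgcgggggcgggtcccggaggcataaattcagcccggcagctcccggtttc
Of the 8 separated genes of the list, 6 had a promoter in RefSeq and 3 of those (50%) held the half-site.

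Of 29 immediate early genes 25 were positive, 8 were above all PBS arrays (27.6%, against 9.59% of all genes), 0 below, and the median was 0.16. Fosb measured 7.63, 6.98 and 7.43 with PBS and 7.94 and 7.66 with imatinib (0.45 ± 0.24), Fosl1 6.64, 6.49 and 6.86 against 7.23 and 6.90 (0.40 ± 0.19), and Fos 8.33, 7.92 and 8.29 against 8.52 and 8.59 (0.38 ± 0.19, adjusted p = 0.802 in limma). Jun, Ier2, Ier3, Klf4 and Klf6 were the other separated genes, with differences of 0.18 to 0.31. No member reached an unadjusted p of 0.05, the smallest being 0.0578. PBS replicate 2 was the low array, by 0.30 below the mean of the 5 arrays for the list, and without it the median was 0.05, 20 of 29 were positive, 8 were above (27.6%) and 3 below (10.3%), where 15.1% of all genes were above and 15.8% below. Without PBS replicate 1 the median was 0.25, and without imatinib replicate 2 it was also 0.25.

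Among Kruppel-like and ETS factors 5 of 24 were above all PBS arrays and 1 below, with a median of 0.12 (0.07 without imatinib replicate 1). Klf15, a glucocorticoid-responsive factor, measured 6.13, 5.92 and 6.32 against 6.48 and 6.72 (0.48 ± 0.17, adjusted p = 0.727 in limma), and Klf9, also induced by glucocorticoids, 8.50, 8.23 and 8.59 against 8.62 and 8.86. Of the 24 genes of the glucocorticoid list, Klf9 included, 4 were above and 0 below, with a median of 0.11. Without PBS replicate 2, the lowest array for the list, that median was 0.005 with 12 of 24 positive, and it was 0.20 without PBS replicate 3, 0.19 without imatinib replicate 1 and 0.07 without imatinib replicate 2. For feedback genes of the ERK pathway 2 of 20 were above and 2 below, with a median of 0.05 that was -0.05 without PBS replicate 2, -0.03 without imatinib replicate 1 and 0.10 without PBS replicate 1 or imatinib replicate 2. Within the circadian clock list 1 of 19 was separated, but the 3 PBS arrays disagreed with each other. Arntl, the clock activator BMAL1, which is named for its spread after its values were seen, measured 5.93, 8.04 and 7.26 on the PBS arrays against 8.08 and 7.85, a spread that no treatment difference of the list exceeded.

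**Figure D3:**
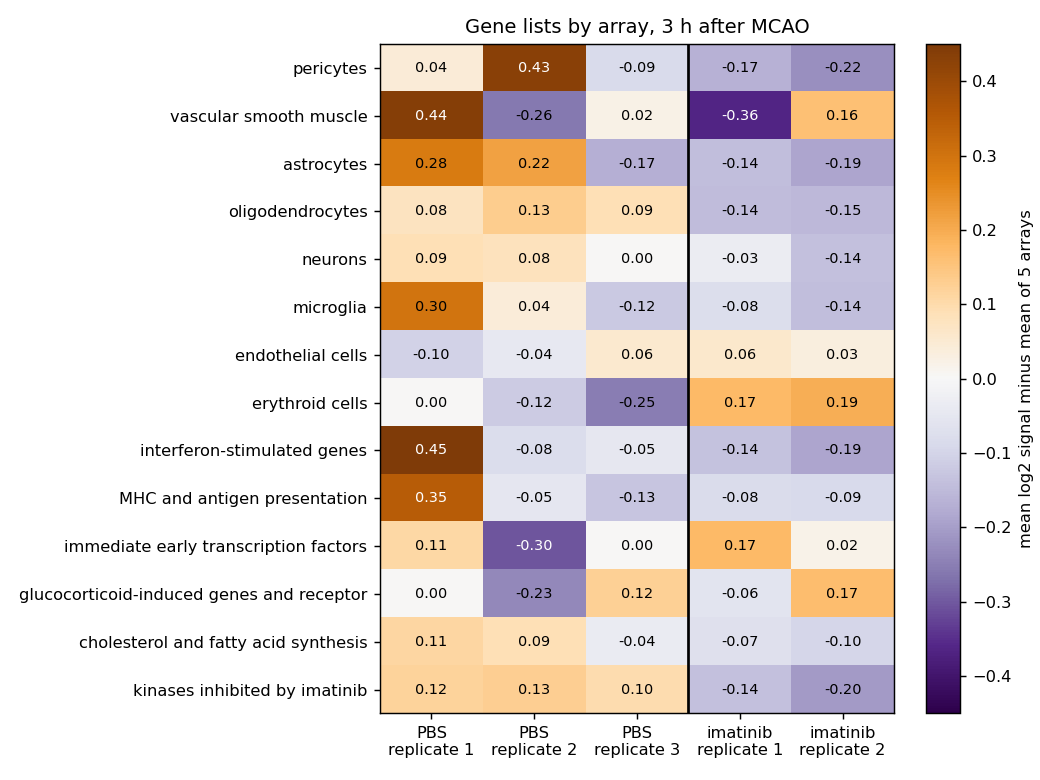
Mean log2 signal of 14 gene lists on each of the 5 arrays of 3 h, minus the mean over those arrays, with the value printed in each cell. PBS replicate 1 stands high for smooth muscle (0.44), interferon (0.45) and antigen presentation (0.35), and PBS replicate 2 for pericytes (0.43). All 3 PBS arrays exceed both imatinib arrays for pericytes, oligodendrocytes, neurons, interferon, cholesterol synthesis and the kinases inhibited by imatinib. Erythroid genes lie the other way. The nearest arrays almost meet for neurons (mean log2 signal 5.508 against 5.473) and cholesterol synthesis (7.077 against 7.045). The 14 lists are a choice from 57. Lists not shown also separate, downward for PDGF, oligodendrocyte precursors and mast cells, and upward for Kruppel-like and ETS factors and p53 targets.

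Erythroid genes were higher with imatinib. Of the 7 measured, 4 were above all PBS arrays (57.1%, against 9.59% of all genes), 6 were positive and the median was 0.31. Hba-a2, a haemoglobin alpha gene, measured 10.00, 9.94 and 9.63 with PBS and 10.46 and 10.67 with imatinib (0.71 ± 0.17, adjusted p = 0.694 in limma). Hbb-b2, a haemoglobin beta gene, measured 10.55, 10.34 and 10.07 against 10.86 and 11.04 (0.62 ± 0.16). Haemoglobin genes have near-identical copies, so a probe set may take up the signal of more than 1. Alas2, the erythroid enzyme of haem synthesis, measured 4.94, 4.90 and 5.13 against 5.33 and 5.27. The anion exchanger gene Slc4a1 (-0.06 ± 0.14), also a red cell gene, had overlapping groups. The platelet list, another trace of blood in vessels, had 0 of 9 separated and a median of 0.06 (-0.16 to 0.30 when 1 array was left out). Whether blood left in the vessels differed between the preparations was not tested.

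In metabolism, genes of cholesterol and fatty acid synthesis had 8 of 24 below all PBS arrays (33.3%), 2 above and a median of -0.13 (-0.07 without PBS replicate 1). Idi1, an isomerase of the isoprenoid steps, measured 6.80, 6.38 and 6.20 with PBS and 5.86 and 5.90 with imatinib (-0.58 ± 0.19, adjusted p = 0.708 in limma). Fdft1, squalene synthase, measured 8.13, 7.90 and 7.91 against 7.76 and 7.54, and Hmgcs1, which opens the pathway, 8.83, 8.68 and 8.49 against 8.25 and 8.44. Lss, lanosterol synthase, lay in the other direction (5.16, 5.27 and 5.07 against 5.47 and 5.50). Atp5g1, a subunit gene of the mitochondrial ATP synthase, was 1 of 3 separated downward among 23 respiratory chain genes, with 5.28, 4.98 and 5.51 against 4.55 and 4.76 (-0.60 ± 0.20). Atf5, a stress-responsive factor, measured 7.74, 7.61 and 7.50 against 6.99 and 7.29 (-0.47 ± 0.13), and was 1 of 4 below among 24 stress genes. Cd55, the complement regulator on cell surfaces, measured 4.35, 3.81 and 4.91 against 5.19 and 5.15 (0.81 ± 0.26), with 2 of 16 complement genes above and 2 below. Heat shock genes had a median of 0.11 with 1 of 25 separated, and the median was -0.02 without imatinib replicate 1, 0.055 without PBS replicate 1 and 0.23 without imatinib replicate 2.

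The other 19 lists, of 57 in all, had medians between -0.12 and 0.12, with 30 of their 349 members above all PBS arrays and 28 below.

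Differences of at least 2-fold were rare and mostly in small or predicted transcripts. Signal was at least 2-fold higher for 29 genes (0.0942%) and lower for 13 (0.0422%), of which 23 and 9 did not overlap between groups. Only 4 and 2 of them belonged to the named class, the 2 lower ones being Nanp, a phosphatase of sialic acid synthesis (3.63, 3.46 and 4.98 against 2.87 and 2.39), and the histone gene Hist1h2bg (7.91, 8.48 and 8.60 against 7.99 and 6.16, overlapping), and in 11 of the 42 every 3 h array was below the median signal of all genes. By RefSeq type, 11 of the 42 were small nuclear RNAs with predicted symbols, 3 predicted and 4 other small nucleolar RNAs, and 2 microRNAs. The 2 microRNA genes, which the rule for named genes leaves out, are given with their mature sequences because a reader may wish to match them, from RefSeq on GRCm38.p6, with the seed (bases 2 to 8) in capitals. The array's symbol names the microRNA gene and does not tell which arm was measured.
mmu-miR-181b-5p: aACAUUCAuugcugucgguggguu
mmu-miR-181b-2-3p: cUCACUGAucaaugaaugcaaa
mmu-miR-290a-5p: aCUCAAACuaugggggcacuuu
mmu-miR-290a-3p: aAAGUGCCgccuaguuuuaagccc
The 4 seeds differ from each other. Mir181b-2 (chr2) measured 6.11, 4.96 and 4.74 with PBS and 4.24 and 4.20 with imatinib, a difference of -1.05 ± 0.51 in which PBS replicate 1 was the highest array by far. Mir290a (chr7) measured 2.47, 2.56 and 2.86 against 5.06 and 2.65, so its difference of 1.23 rests on imatinib replicate 1 alone and its groups overlap.

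Differences at 3 h were set against those at 24 h. The 24 h comparison uses other arrays for both treatments. Its mice had 4 treatments and those of 3 h had 3, so time after MCAO and number of treatments cannot be told apart. No gene passed the test of the difference between the times, 0 of 30790 (smallest adjusted p 0.371 in limma; 5.49% of genes had an unadjusted p under 0.05). Across genes the 2 sets of differences had a Pearson's r of 0.04, a description over genes that are not independent. Cldn6, Arnt2 and Olfr116 shared the smallest adjusted p. Arnt2 differed by -0.82 ± 0.13 at 3 h and 0.31 ± 0.11 at 24 h, a gap of -1.13 ± 0.17. Hba-a2 differed by 0.71 ± 0.17 and -0.63 ± 0.16, a gap of 1.34 ± 0.23 (adjusted p = 0.564 in limma), and Fgr, a kinase gene of myeloid cells, by 0.63 and -0.73. Bcas1, a marker of oligodendrocytes that are starting to form myelin, differed by -0.62 ± 0.15 and 0.28, Nkain2 by -0.58 and 0.29, and the chloride channel gene Ano1 by -0.43 and 0.34. Cyp2d13 differed by -0.52 and 0.49. Dgat2, which makes triglycerides, went from 0.48 to -0.23 and Cenpk, a centromere protein gene, from 0.59 to -0.50. At 3 h the signals of Cyp2d13 (3.51 to 4.12) and Cenpk (3.21 to 4.05) lay near or below the 25th percentile of all genes on an array (3.93 to 3.97).

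By group, pericyte and erythroid markers lay on opposite sides of zero at the 2 times. Pericyte markers had medians of -0.30 at 3 h and 0.23 at 24 h, with 0 and 12 of 14 positive. Rgs5, a regulator of G-protein signalling abundant in pericytes, measured 12.04, 12.28 and 11.93 against 11.90 and 11.89 at 3 h, a difference of -0.19 ± 0.11, and differed by 0.32 ± 0.10 at 24 h. The interaction had an unadjusted p under 0.05 in 9 of the 14, with no adjusted p below 0.867. Pdgfrb differed by -0.45 and 0.29 and Pdgfra by -0.83 and 0.23, with adjusted p of 0.868 and 0.802 for the interaction in limma. Erythroid genes had medians of 0.31 and -0.23, with 4 of 7 above all PBS arrays at 3 h and 4 of 7 below all PBS arrays at 24 h (6.67% of all genes were). Interferon-stimulated genes had medians of -0.23 and 0.11, with 4 and 25 of 33 positive. Endothelial markers were positive at both times, 17 of 20 with a median of 0.07 and 20 of 20 with a median of 0.24.

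**Figure D4:**
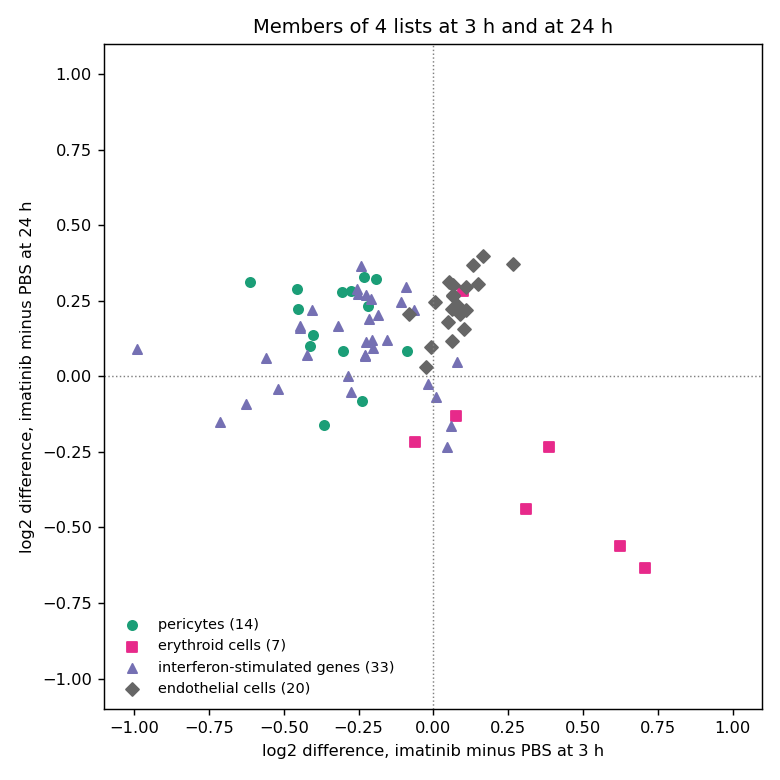
Imatinib minus PBS on the log2 scale at 3 h (horizontal) and at 24 h (vertical) for the members of 4 lists, with list sizes in the key. Most pericyte genes lie left of zero and above it, the haemoglobin genes lie at the lower right, and the endothelial genes cluster just right of zero and above it.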

How the data were processed

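RNA of vascular fragments was measured in 11 samples, of which 5 were taken at 3 h. Per the labels' protocols, 10 ng of total RNA was amplified and biotin-labelled with NuGEN kits. Per the submitters' processing notes, the deposited log2 signals come from RMA in Affymetrix Expression Console, and limma was used. The sources used here do not give the array type, genome build or versions. No depth is given, and the number of arrays limits the precision.

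Of 33793 probe sets, 1591 had no symbol, 128 several and 14 a symbol altered to a date. Each of 730 genes with several probe sets was represented by that of highest mean over the 11 arrays, leaving 30790 genes. The authors' deposited 3 h differences equalled the differences of group means to within 1.1e-14. Groups come from the labels. limma 3.58.1 (R 4.3.3) fitted 4 group means on all 11 arrays, which adds 24 h arrays to the spread (residual degrees of freedom 7, prior 4.37). No library-size or count step applies. Same-numbered samples did not deviate together (correlations -0.04 to 0.06), so the numbers were not used as pairs.

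Gene lists (57, from general knowledge) and all members were chosen with earlier results of these data known. They hold 1081 entries, 985 symbols, 952 measured. Named genes are the 15 largest separated differences in each direction with the higher group mean at or above the median of all genes' means, up to 3 separated genes per list and direction, 8 per direction by the interaction, 10 genes fixed for their tie to imatinib, and markers that check the tissue. Other genes named to complete a count, and Olfr116, Arntl, Tnf, Nanp, Hist1h2bg and both microRNAs, were chosen after their values were seen. Promoters and microRNAs were matched by symbol in RefSeq. Scripts were tested on simulated data, and figures used matplotlib 3.10.9. The alternatives were other normalizations, filters, priors, probe set means, array weights, a replicate block and leaving out each array. Some list members are counted but not reported here by name.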

Additional observations from a re-analysis of the deposited data

Results flagged for a closer look

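The mean signal of the pericyte markers differed in sign between the times. It was lower on every imatinib array than on every PBS array at 3 h, by -0.325, and higher on every imatinib array at 24 h, by 0.173. The erythroid genes showed the opposite order, with every imatinib array above every PBS array at 3 h (0.305) and below at 24 h (-0.276). The difference between the times was not tested for these list means, and time cannot be told apart from the number of treatments.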

How the results depend on the processing

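No gene was lower with imatinib at 3 h under any alternative run. The count of higher genes, 0 as reported, was 1 when predicted genes, small RNAs and receptors were not tested (Cldn6, adjusted p = 0.0461 in limma), 2 after a second quantile normalization, 2 after median centring (Cldn6 and Olfr116 in both) and 2 at an adjusted p threshold of 0.1. Leaving out 1 array gave 0 to 4 higher genes. These were 4 small or predicted RNAs, Mir290a among them, without imatinib replicate 2, 1 predicted gene without imatinib replicate 1, and Olfr116 without PBS replicate 3 of 24 h. The adjusted p of Cldn6 ranged from 0.0461 to 0.723 over the alternatives. Genes with a larger difference at 3 h than at 24 h numbered 0 to 2 when 1 array was left out, with 2 without imatinib replicate 2, and genes with a smaller one numbered 0. With the replicate block, a pairing the data did not bear out, 0 genes passed and the smallest adjusted p was 0.163 (0.103 for the interaction). The 29 genes at least 2-fold higher became 9 among genes at or above the median signal and 4 in the named class, and the 13 lower became 2 and 2. Leaving out 1 of the 3 h arrays gave 28 to 70 higher and 20 to 43 lower, the most without an imatinib array, where the imatinib value is that of 1 array. In the tests without an imatinib array, the lone array is assumed to vary like the others. Of 456 list medians recomputed, 43 moved by more than the SD of the list mean over the PBS arrays.

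After quantile normalization and after median centring Mag differed by 0.009. Leaving out 1 array took these genes across zero: Abl2 (-0.010 to 0.124), Acta2 (-0.526 to 0.029), Cldn11 (-0.057 to 0.090), Cldn5 (-0.059 to 0.192), Mag (-0.171 to 0.151), Mog (-0.386 to 0.316), Pdgfc (-0.280 to 0.083) and Slc4a1 (-0.179 to 0.025). The other genes named in the text kept their direction. The number of arrays limits all of these values, and the cause of the changes was not tested.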
